A study of Mus musculus with 354 samples.

Results

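The measurements below concern 10 genes of TGF-beta, BMP and activin signalling in cochlear supporting cells (SCs) of newborn mice. They were taken by name, as rows among the 55367 genes counted in each cell. They comprise 7 ligand genes (*Tgfb1*, *Tgfb2*, *Tgfb3*, *Bmp2*, *Bmp4*, *Inhba* and *Inhbb*), 2 receptor genes (*Tgfbr1* and *Tgfbr2*) and 1 antagonist gene (*Fst*). No threshold on a measured value picked them, but earlier results of these data were known when they were chosen. All 10 were present, and all 10 passed the filter on low counts that left 21416 genes for testing.

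CA-ERBB2 pups carried the transgenes Fgfr3-iCre and ROSA-floxed-rtTA/GFP together with TetON-CA-ErbB2, a transgene for a constitutively active ERBB2 receptor tyrosine kinase. Control littermates carried Fgfr3-iCre and ROSA-floxed-rtTA/GFP without that transgene. Tamoxifen at P0 and P1 activated the Cre, whose expression the *Fgfr3* promoter restricts mainly to SCs, and so switched on GFP and rtTA. Doxycycline at P2 induced the transgene through rtTA, and single GFP-positive cells were sorted from dissociated P3 cochleae. The sample labels list these injections for the CA-ERBB2 cells only. The general protocol, given for all cells, does not say separately whether Control pups, whose cells were sorted by the same GFP, also received doxycycline, so a difference in treatment cannot be told apart from one in genotype. SMART-Seq libraries of 354 cells were analysed, 177 per genotype, on 3 plates of 59 wells each. Several pups were pooled for a plate, so each plate was treated as 1 replicate (n = 3 per genotype), whatever its number of cells.

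TGF-beta, BMP and activin are secreted dimers of one protein superfamily. They bind pairs of type II and type I receptor kinases at the cell surface, which phosphorylate SMAD transcription factors. TGF-beta and activin mainly use SMAD2 and SMAD3, while BMPs use SMAD1, SMAD5 and SMAD9. TGF-beta is secreted in a latent complex that has to be opened in the extracellular matrix before the ligand can bind. Follistatin, the product of *Fst*, binds activin with high affinity, and BMPs less tightly, and keeps them from their receptors, whereas it is not known as a direct inhibitor of TGF-beta 1. In the developing cochlea, activin A and follistatin are known as opposing signals for the timing of hair cell differentiation, and BMP4 marks the lateral side of the cochlear duct.

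The sequence in front of 3 of the ligand genes is shown because *Tgfb1* was the member whose detection separated the genotypes, while *Tgfb2* and *Inhba* had most of their counts in the same cell cluster. RefSeq promoters on GRCm38.p6 were found for 7 of the 10 members, and not for *Tgfb3*, *Bmp2* and *Fst*. Each run covers the 250 bases before the annotated start, 5′ to 3′ on the gene's strand, from chr7:25686752-25687001 (plus strand) for *Tgfb1*, chr1:186705990-186706239 (minus strand) for *Tgfb2* and chr13:16011601-16011850 (plus strand) for *Inhba*. Capitals mark motifs found on either strand: the GC box GGGCGG, the TATA box TATAAA, the SMAD-type element CAGACA and the E-box CACGTG.
Tgfb1: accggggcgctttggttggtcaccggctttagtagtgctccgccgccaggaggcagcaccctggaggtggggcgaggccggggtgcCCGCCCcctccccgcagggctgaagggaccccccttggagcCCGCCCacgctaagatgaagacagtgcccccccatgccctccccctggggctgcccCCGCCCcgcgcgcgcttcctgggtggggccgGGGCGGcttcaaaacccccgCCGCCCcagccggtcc
Tgfb2: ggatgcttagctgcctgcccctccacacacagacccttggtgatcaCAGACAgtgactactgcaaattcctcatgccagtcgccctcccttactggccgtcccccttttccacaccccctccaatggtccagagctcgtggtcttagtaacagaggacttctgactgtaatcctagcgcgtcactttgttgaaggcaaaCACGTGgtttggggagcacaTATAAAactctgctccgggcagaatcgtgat
Inhba: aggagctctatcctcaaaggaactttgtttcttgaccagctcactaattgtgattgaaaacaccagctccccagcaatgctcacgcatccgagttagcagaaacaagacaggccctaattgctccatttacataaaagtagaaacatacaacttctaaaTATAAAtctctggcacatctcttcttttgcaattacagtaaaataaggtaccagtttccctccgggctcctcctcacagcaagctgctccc

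The *Tgfb1* window held 5 GC boxes and no TATA box, and 75.2% of its bases were G or C. Both the *Tgfb2* window (53.6% G or C) and the *Inhba* window (43.2%) held 1 TATA box and no GC box. Among the 32851 RefSeq windows of the same length, 32.7% held a GC box, 12.4% a TATA box, 17.1% the SMAD-type element and 6.02% the E-box. The AP-1 motif TGANTCA, which 6.75% of windows held, was in none of the 3. These matches are descriptions of letters and not of bound sites.

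Depth and the number of genes per cell differed between plates, and cells with few counts were mostly Control cells. The counts summed per plate ranged from 108357282 to 188636940, and the median per cell was 2866362 with a range from 1443 to 5178221. These are reads and not molecules, since no molecular identifiers were used, and the intervals of detection shares reflect counting error alone. The median number of genes detected per cell was 10198 on CA-ERBB2 plate 1 and 8679 on Control plate 1, against 1742 to 2954 on the other 4 plates. Fewer than 100000 counts were obtained from 2 CA-ERBB2 and 33 Control cells, the latter all on Control plates 2 and 3. Wells A12 to D12 stood apart, with a median of 15673 genes in CA-ERBB2 and 15538 in Control against 3269 and 3233 in the other wells. Some results are therefore also given without them. These are the plate shares of *Tgfb1*, *Fst*, *Inhba* and both receptors, the *Bmp2* plate levels and the *Tgfb1* to *Fst* ratio. Unless so stated, the counts of cells below include these wells. The *Erbb2* row, which checks the labels, was at 46.0 to 120 CPM (counts scaled to the same total of 1000000 per plate) on the CA-ERBB2 plates and 3.24 to 19.8 CPM on the Control plates. No 2 cells had identical counts.

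The sorted cells held markers of SCs and also of other cochlear tissue. *Sox9*, a transcription factor of SCs, was detected in 183 cells and *Epcam*, an epithelial adhesion gene, in 128, while the mesenchymal collagen gene *Col1a2* was detected in 250 of the 354 cells. *Sox9* and *Col1a2* were the most often detected of their lists of 9 SC and 8 mesenchymal markers. *Sox2* was in 95 cells, *Fgfr3* in 109 and *Prox1*, the least detected SC marker, in 72. The least detected mesenchymal marker, *Pdgfrb*, was in 123. Summed over 8 mesenchymal markers, CA-ERBB2 plates had 3646 to 4810 CPM and Control plates 3544 to 5340 CPM. Summed over 9 SC markers, they had 1205 to 2066 CPM and 721 to 1900 CPM. None of the 11 marker lists examined separated the plates of the genotypes, and no marker was at 0 on every plate.

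Sums of all cells of a plate were scaled to CPM with TMM factors and compared with the edgeR quasi-likelihood test. A plate sum cannot tell fewer cells with a gene from less RNA per cell, so the share of cells with at least 1 count is given beside it. The level of *Tgfb1* was higher in CA-ERBB2 on average and that of *Fst* lower, with plates that overlapped for both. edgeR called 0 of the 10 members, requiring a log2 fold change of more than 1 in size with an adjusted p under 0.05, as against 0.00467% of all genes tested. At an unadjusted p under 0.05 it counted 1 member as higher, *Tgfb1*, and 0 as lower, where 2.77% of all genes tested were higher and 2.39% lower. DESeq2, which called 1.25% of the genes it gave an adjusted p, also called 0 members with 1 at an unadjusted p under 0.05, and limma with every cell weighted equally called 0 with 0 at that p. The log2 fold change was above 0 for 3 members, with a median of -0.35 over the 10 and -0.02 over all genes tested.

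**Figure D1:**
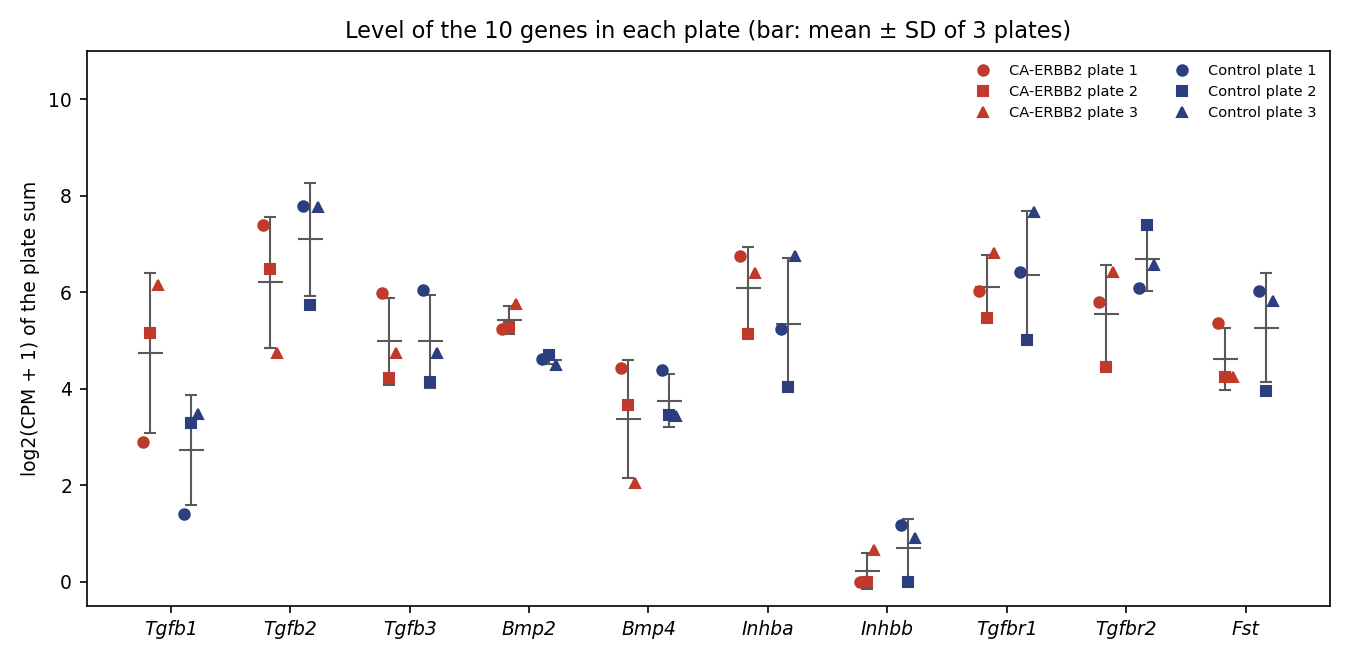
Level of each of the 10 genes as log2(CPM + 1) of the plate sum (vertical axis), with 1 point per plate, CA-ERBB2 in red and Control in blue, circles, squares and triangles for plates 1, 2 and 3, and the mean ± SD of 3 plates as a bar. The 3 CA-ERBB2 plates lay above the 3 Control plates for *Bmp2* only, and *Inhbb* was at 0 on 3 plates.

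*Tgfb1* encodes TGF-beta 1, the ligand most studied in fibrosis and immune regulation (chr7:25687002-25705077, plus strand, GRCm38). Its level on the CA-ERBB2 plates, in the order of plates 1, 2 and 3 used throughout, was 6.46, 34.7 and 70.0 CPM, and on the Control plates it was 1.65, 8.74 and 10.1 CPM. CA-ERBB2 plate 1 was below Control plates 2 and 3, and the other CA-ERBB2 plates were above every Control plate. The mean was 37.0 ± 31.8 CPM (SD, n = 3) in CA-ERBB2 and 6.82 ± 4.53 CPM in Control, a log2 fold change of 2.44 ± 1.00 (SE), with an unadjusted edgeR p of 0.0333 and an adjusted p of 0.911. Over 15 alternative settings the adjusted p ranged from 0.311 to 1.00. The unadjusted edgeR p was 0.168 without CA-ERBB2 plate 3, 0.0531 without CA-ERBB2 plate 2 and 0.0928 without Control plate 1. Without CA-ERBB2 plate 3 the log2 fold change was 1.61.

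*Tgfb1* was detected in more cells of every CA-ERBB2 plate than of any Control plate. At least 1 count was found in 22, 15 and 19 of 59 cells per CA-ERBB2 plate, whereas the Control plates had 9, 10 and 8 such cells. The mean share was 31.6% ± 5.95 (SD, n = 3) in CA-ERBB2 and 15.3% ± 1.69 in Control, a difference of 16.4 percentage points with a two-sided exact permutation p of 0.1, the smallest that 3 plates against 3 allow. Over all cells of a genotype, the 95% exact binomial interval was 24.9% to 39.0% for CA-ERBB2 and 10.3% to 21.4% for Control. These intervals take cells as independent, though the plate is the replicate. They leave out the spread between plates and are no test of genotype. *Tgfb1* was the only member whose shares did not overlap between genotypes with CA-ERBB2 higher, where 1.25% of all genes tested were so separated, and no member was separated with CA-ERBB2 lower, as 0.191% of all genes were.

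The separation of the *Tgfb1* shares depended on how a cell was counted. With wells A12 to D12 left out the shares were 32.7%, 20.0% and 27.3% on the CA-ERBB2 plates and 12.7% on each Control plate. With each cell thinned to 100000 counts the means were 23.5% and 12.2%, and with 1000000 counts 33.6% and 17.5%, separated in both cases. Thinning to 100000 counts left out 2 CA-ERBB2 and 33 Control cells. In the 305 cells with at least 100000 counts and under 20% mitochondrial counts, the shares were 37.9%, 26.4% and 34.5% against 15.5%, 27.8% and 15.6%, so that Control plate 2 lay above CA-ERBB2 plate 2 (exact permutation p = 0.2). At 10 CPM or more in a cell, *Tgfb1* was found in 6, 13 and 16 CA-ERBB2 cells and in 5, 6 and 7 Control cells per plate, and CA-ERBB2 plate 1 overlapped with the Control plates (exact permutation p = 0.3).

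**Figure D2:**
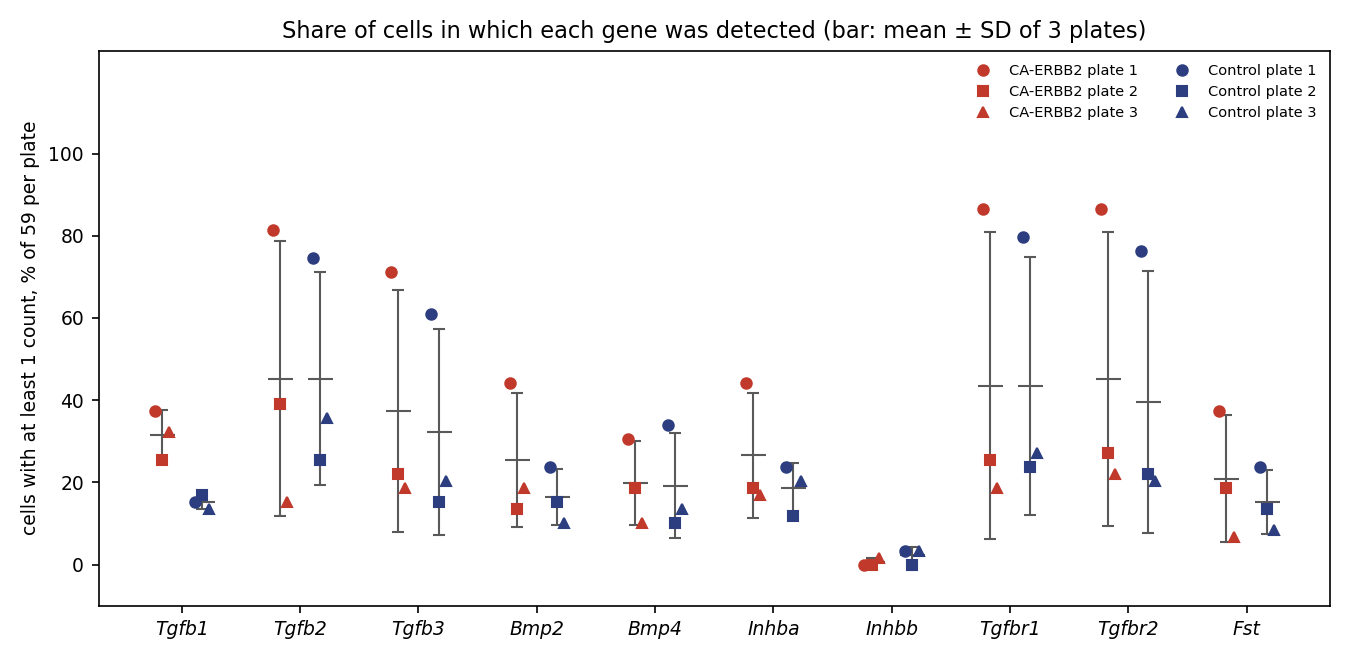
Share of the 59 cells of each plate with at least 1 count of each gene (vertical axis, %), with 1 point per plate, CA-ERBB2 in red and Control in blue, circles, squares and triangles for plates 1, 2 and 3, and the mean ± SD of 3 plates as a bar. For *Tgfb1* the CA-ERBB2 plates lay at 25.4% or more and the Control plates at 16.9% or less, whereas *Tgfb2*, *Tgfb3* and both receptors were detected most often on plate 1 of either genotype.

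A large part of the counts of *Tgfb1* came from few cells. The 5 cells with the most counts held 49.6% of its counts in CA-ERBB2 and 65.1% in Control, and the median level among cells with a count was 20.3 CPM and 14.0 CPM. Cells in which it was detected had more genes in all, with a median of 9074 against 2446 in CA-ERBB2 and 8055 against 2970.5 in Control. *Ptprc*, which marks leukocytes, was found in 8 of the 56 CA-ERBB2 cells with *Tgfb1* and in 6 of the 27 Control cells with it, and *Adgre1*, a macrophage gene, in 9 of each. Over all cells, *Ptprc* was in 12 CA-ERBB2 and 10 Control cells and *Adgre1* in 11 of each. These counts include the gene-rich wells A12 to D12. Of 11 macrophage markers the median number per cell was 1 with *Tgfb1* and 0 without it in CA-ERBB2, and 3 and 0 in Control. Summed over these 11 markers, CA-ERBB2 plates had 51.8 to 1220 CPM and Control plates 443 to 1836 CPM, with none at 0 on every plate, and their part in the *Tgfb1* level was not tested.

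*Tgfb1* was frequent among the cells with high levels of the 4 genes *Spp1*, *Timp1*, *Mmp9* and *Dmp1*, which encode secreted proteins of the extracellular matrix. The 36 cells with at least 100 CPM of each were all CA-ERBB2 cells, and 24 of them (66.7%) had *Tgfb1* counts, against 32 of the other 141 CA-ERBB2 cells (22.7%) and 27 of the 177 Control cells (15.3%). They held 52.1% of the *Tgfb1* counts of CA-ERBB2, with a median of 3198 genes per cell, below the 3853 of the other CA-ERBB2 cells. That median runs over cells that differ widely in gene number, as the clusters below show. By plate, 3 of 3, 7 of 14 and 14 of 19 such cells had *Tgfb1*. In the remaining CA-ERBB2 cells it was found in 19 of 56, 8 of 45 and 5 of 40. Every CA-ERBB2 well of A12 to D12 had *Tgfb1*, and these counts were not made without those gene-rich wells.

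*Tgfb2*, a TGF-beta ligand of many embryonic epithelia (chr1:186622792-186705989, minus strand), had the highest level per kilobase of exon of the 10 genes, 22.1 CPM per kb over the 6 plates. Its plate level was 166, 88.5 and 25.5 CPM in CA-ERBB2 and 218, 52.4 and 216 CPM in Control. The plates overlapped, and the log2 fold change was -0.80 ± 0.74 (SE; unadjusted edgeR p = 0.306). It was -1.52 without CA-ERBB2 plate 1 and -0.34 without CA-ERBB2 plate 3. It was detected in 80 cells of each genotype, 48, 23 and 9 per CA-ERBB2 plate and 44, 15 and 21 per Control plate. *Tgfb3*, whose product signals through the same receptors (chr12:86056745-86079041, minus strand), was almost level between genotypes, at 62.2, 17.6 and 25.6 CPM in CA-ERBB2 and 64.9, 16.7 and 25.8 CPM in Control. It was detected in 66 and 57 cells. Exons of both genes overlap those of antisense transcripts, *Gm29491* for *Tgfb2* and *Gm37804* and *Gm48008* for *Tgfb3*.

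*Bmp2*, a ligand of the BMP branch (chr2:133552159-133562885, plus strand), was the only member whose plate levels did not overlap. They were 36.7, 37.7 and 52.9 CPM in CA-ERBB2 and 23.5, 24.8 and 21.5 CPM in Control. Every CA-ERBB2 plate exceeded every Control plate, as for 4.2% of all genes tested, and 0 of the 10 members were below, as for 4.88%. The log2 fold change was 0.87 ± 0.56 (SE; unadjusted edgeR p = 0.150, adjusted p = 0.918), and the exact permutation p of the plate levels was 0.1. The plates were also separated without wells A12 to D12 and in the 305 filtered cells. Cells with *Bmp2* numbered 26, 8 and 11 per CA-ERBB2 plate and 14, 9 and 6 per Control plate, which overlapped, and the 5 cells with the most counts held 52.5% of them in CA-ERBB2 and 68.1% in Control. Among the 36 cells with the 4 matrix genes, 17 had *Bmp2* (47.2%), against 28 of the other 141 CA-ERBB2 cells (19.9%). Both counts were not made without wells A12 to D12.

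*Bmp4*, the BMP ligand of the outer sulcus (chr14:46383520-46390669, minus strand), did not differ beyond the spread between plates. Its level was 20.5, 11.6 and 3.10 CPM in CA-ERBB2 and 19.8, 9.88 and 9.75 CPM in Control, with a log2 fold change of -0.16 ± 0.90 (SE; unadjusted edgeR p = 0.861). It was detected in 35 CA-ERBB2 and 34 Control cells. An antisense transcript, *Gm15217*, overlaps its exons.

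*Inhba* encodes the subunit of activin A (chr13:16011851-16031621, plus strand). Its level was 107, 34.0 and 82.8 CPM on the CA-ERBB2 plates and 36.6, 15.4 and 107 CPM on the Control plates. Control plate 3 was as high as the highest CA-ERBB2 plate, and the log2 fold change was 0.49 ± 0.74 (SE; unadjusted edgeR p = 0.523). The log2 fold change was 1.54 without Control plate 3 (unadjusted edgeR p = 0.0703) and 0.046 without Control plate 2. It was detected in 26, 11 and 10 cells per CA-ERBB2 plate and in 14, 7 and 12 cells per Control plate. Where it was detected the level was high, with a median of 139 CPM per positive cell in both genotypes.

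*Inhbb*, which encodes the subunit of activin B (chr1:119415465-119422248, minus strand), was close to undetected. It had 51 counts in 1 cell of CA-ERBB2 plate 3, and 298 and 104 counts in 2 cells each of Control plates 1 and 3. It had 0 counts on CA-ERBB2 plates 1 and 2 and on Control plate 2, where a count of 0 in 59 cells allows a share of up to 5.08%. Its fitted log2 fold change of -1.91 had an SE of 2.49. That value rested on the 1 CA-ERBB2 cell. Without CA-ERBB2 plate 3 all CA-ERBB2 plates were at 0 and the unadjusted edgeR p was 0.0336.

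The receptor genes were detected in more cells than most ligands. *Tgfbr1*, the type I receptor kinase (chr4:47353222-47414931, plus strand), was at 64.1, 43.0 and 111 CPM in CA-ERBB2 and 84.9, 31.1 and 200 CPM in Control, with a log2 fold change of -0.53 ± 0.69 (SE; unadjusted edgeR p = 0.457). It was detected in 77 cells of each genotype. *Tgfbr2*, the type II receptor that binds the ligand (chr9:116084293-116175360, minus strand), was at 54.6, 20.8 and 84.1 CPM in CA-ERBB2 and 67.1, 167 and 94.0 CPM in Control, a log2 fold change of -1.04 ± 0.63 (SE; unadjusted edgeR p = 0.127). The highest of these values, on Control plate 2, came for 69.9% from 1 cell. Cells with *Tgfbr2* numbered 80 in CA-ERBB2 and 70 in Control, and the plates overlapped in level and in share.

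Cells with both ligand and receptors came mostly from plates 1. At least 1 of the 3 TGF-beta ligands was detected in 111 CA-ERBB2 and 97 Control cells, and both receptors in 65 and 54 cells. Of those with both receptors, 62 of 65 CA-ERBB2 and 49 of 54 Control cells also had a ligand. Cells with a ligand and both receptors numbered 44, 10 and 8 per CA-ERBB2 plate and 36, 7 and 6 per Control plate. These counts include the gene-rich wells A12 to D12 and were not made without them. With these wells left out, *Tgfbr1* was in 85.5%, 20.0% and 12.7% of cells per CA-ERBB2 plate and *Tgfbr2* in 85.5%, 21.8% and 16.4%. On the Control plates the shares were then 78.2%, 20.0% and 21.8% for *Tgfbr1* and 74.5%, 18.2% and 16.4% for *Tgfbr2*. The median number of members detected per cell was 5 and 4 on plates 1 of CA-ERBB2 and Control and 0 or 1 on the other 4 plates, where fewer genes were detected per cell. None of the 10 genes was detected in 52 CA-ERBB2 and 61 Control cells.

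*Fst* encodes follistatin (chr13:114452290-114458951, minus strand). Its level was 39.8, 17.9 and 17.8 CPM on the CA-ERBB2 plates and 63.8, 14.5 and 54.9 CPM on the Control plates. Control plate 2 was below every CA-ERBB2 plate, and the other Control plates were above CA-ERBB2 plates 2 and 3. The means were 25.2 ± 12.7 CPM (SD, n = 3) and 44.4 ± 26.3 CPM, with a log2 fold change of -0.82 ± 0.71 (SE). The edgeR p was 0.272 unadjusted and 0.933 adjusted. Weighting every cell equally turned the direction, with a limma difference of 0.16 in mean log2(CPM + 1). On CA-ERBB2 plate 3, 1 cell held 94.8% of the counts, and an antisense transcript, *Gm47040*, overlaps exons of the gene.

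The share of cells with *Fst* did not follow the mean level. It was detected in 22, 11 and 4 cells per CA-ERBB2 plate and in 14, 8 and 5 cells per Control plate, 20.9% ± 15.4 (SD, n = 3) against 15.3% ± 7.77. The difference of 5.65 percentage points was within the spread between plates (exact permutation p = 0.7), and without CA-ERBB2 plate 1 it was -2.54 points. The median level among positive cells was 46.1 CPM in CA-ERBB2 and 109 CPM in Control. Cells with *Fst* had a median of 10653 genes in CA-ERBB2 and 9092 in Control, against 2946.5 and 3074.5 in cells without it.

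The balance of the ligand *Tgfb1* against the antagonist *Fst* was read as the log2 ratio of their plate levels, with 1 CPM added to each. In CA-ERBB2 it was -2.45, 0.92 and 1.92 for plates 1, 2 and 3, and in Control -4.61, -0.67 and -2.34. *Tgfb1* exceeded *Fst* on 2 of the 3 CA-ERBB2 plates and on 0 of the 3 Control plates. The mean was 0.13 ± 2.29 (SD, n = 3) in CA-ERBB2 and -2.54 ± 1.98 in Control, a difference of 2.67 with a two-sided exact permutation p of 0.3. CA-ERBB2 plate 1 lay between the Control plates, and the other CA-ERBB2 plates lay above all of them. Without wells A12 to D12 the difference was 2.53 (exact permutation p = 0.2), and without CA-ERBB2 plate 1 it was 3.96, with both remaining plates above every Control plate (exact permutation p = 0.2). Without Control plate 1 it was 1.63.

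Over all cells of a genotype, most cells with *Tgfb1* lacked *Fst*. In CA-ERBB2, 22 cells had both, 34 had *Tgfb1* only, 15 had *Fst* only and 106 had neither. In Control the numbers were 9, 18, 18 and 132. Of the cells with *Fst*, 22 of 37 (59.5%) in CA-ERBB2 and 9 of 27 (33.3%) in Control had *Tgfb1*, and the product of the shares of the 2 genes would give 11.7 and 4.12 cells with both. On CA-ERBB2 plate 3, 15 of 19 cells with *Tgfb1* lacked *Fst*, whereas on CA-ERBB2 plate 1 the numbers were 10 of 22. At 10 CPM or more of each, 5 CA-ERBB2 and 3 Control cells had both genes. All these counts include the gene-rich wells A12 to D12, and cells with both genes were not counted without them. With these wells left out, *Fst* was detected in 32.7%, 12.7% and 1.82% of cells per CA-ERBB2 plate. On the Control plates it was then in 18.2%, 10.9% and 7.27%. Set against the shares of all cells, every CA-ERBB2 well of A12 to D12 had *Tgfb1* and nearly all had *Fst*. Many of the 22 CA-ERBB2 cells with both genes were therefore such wells. What the overlap of the 2 genes would be without these wells was not tested. Over the 305 cells kept by the filter, the correlation of the 2 genes in log2(CPM + 1), centred on the plate means, was 0.06. These points share plates and depth, and the value is a description.

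**Figure D3:**
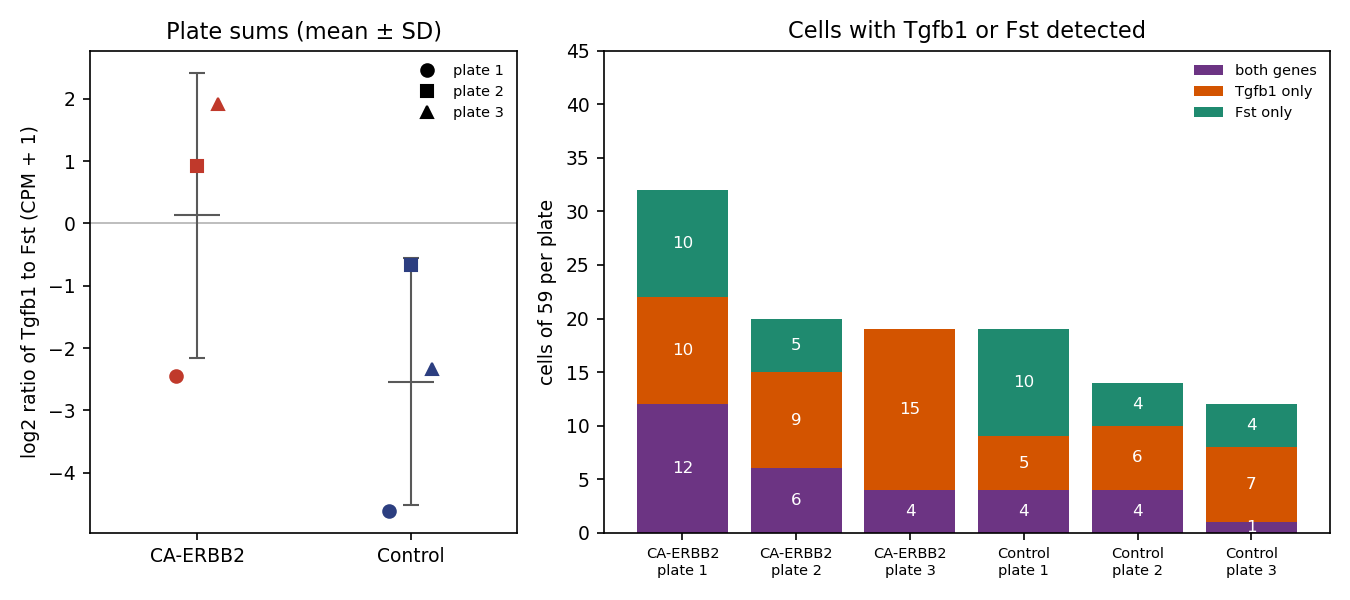
Left, log2 ratio of *Tgfb1* to *Fst* in the plate sums (CPM + 1), with 1 point per plate and the mean ± SD of 3 plates as a bar. Right, number of cells of the 59 per plate with both genes, *Tgfb1* only or *Fst* only at 1 count or more. CA-ERBB2 plates 2 and 3 lay above 0 and all Control plates below it, and CA-ERBB2 plate 3 had 15 cells with *Tgfb1* only and 0 with *Fst* only.

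*Fst* was found with other ligands of the superfamily. *Tgfb3* was detected in 33 of the 37 CA-ERBB2 cells with *Fst* (89.2%) and in 24 of the 27 Control cells with it (88.9%), where 37.3% and 32.2% of all cells had *Tgfb3*. *Bmp4* was detected in 19 of 37 and 14 of 27. *Inhba*, whose activin product follistatin binds, was found together with *Fst* in 18 CA-ERBB2 and 5 Control cells, which is 38.3% and 15.2% of the cells with *Inhba*. The difference between genotypes in these shares was not tested. All counts of this paragraph include the gene-rich wells A12 to D12 and were not made without them. With these wells left out, *Inhba* was in 41.8%, 12.7% and 14.5% of cells per CA-ERBB2 plate. It was then in 18.2%, 10.9% and 16.4% per Control plate. By the shares with and without them, many of the 18 CA-ERBB2 cells with *Inhba* and *Fst* were such wells. So were most of the 5 Control cells.

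The genes most like *Fst* and *Tgfb1* across cells were different ones. Among 15735 genes detected in at least 10% of the 305 cells, the highest correlations with *Fst* were those of *Tgfb3* (0.61), *Shisa3* (0.56), *Foxd1* (0.54), *Gm37804* (0.53) and *Col8a1* (0.53). *Gm37804* overlaps *Tgfb3* on the opposite strand, and *Col8a1* encodes a collagen. The highest with *Tgfb1* were those of *Col6a1* (0.52), a collagen VI chain, *Ptprv* (0.49), *Il2rg* (0.49), the receptor chain common to several interleukins, *Bglap2* (0.47), an osteocalcin gene, and *Nrgn* (0.47). The highest among the other members was 0.25 with *Tgfb1*, for *Bmp2*. All are Pearson correlations over cells that share plates and depth.

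The members were found in different groups of cells when the cells were clustered by their transcriptomes. Clustering at resolution 0.6 gave 5 clusters of 115, 95, 58, 51 and 35 cells, which are described without a test since the genes of these cells formed them. None was given a cell type name, because the leading genes of none were mainly markers of 1 type. In cluster 3 (29 CA-ERBB2 and 29 Control cells) the genes *Pou4f3*, *Grp* and *Chrna10* led, of which *Pou4f3* is a transcription factor of hair cells, and *Ccer2*, also on the hair cell marker list, was among the 10 leading genes. All 9 SC, 6 Deiters cell, 7 pillar cell, 10 greater epithelial ridge and 8 mesenchymal markers, and 7 of 8 hair cell markers, were in at least 25% of its cells. It held 67.9% of all *Inhba* counts, 52.0% of those of *Tgfb2* and 45.3% of those of *Bmp2*. *Inhba* was detected in 45 of its 58 cells, at a mean of 209 CPM, and *Tgfb2* and *Tgfbr1* in 56 each. *Inhba* was in 25 of its 29 CA-ERBB2 and 20 of its 29 Control cells.

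Cluster 2 (46 CA-ERBB2 and 49 Control cells), with *Prss35*, *Adamts20* and *Cpm* leading, held most of the antagonist. All 8 mesenchymal and 5 outer sulcus markers, 8 of 9 SC and 8 of 10 greater epithelial ridge markers were in at least 25% of its cells, and the median mesenchymal sum per cell was 7212 CPM, against 129 CPM in cluster 3. It held 67.5% of all *Fst* counts, 72.5% of those of *Tgfb3*, 70.1% of those of *Bmp4* and 50.8% of those of *Tgfbr2*. *Fst* was detected in 35 of its 95 cells and *Tgfbr2* in 89, while *Inhba* was in 17 and had 8.28% of its counts there. *Fst* was in 19 of its 46 CA-ERBB2 and 16 of its 49 Control cells, at means of 55.4 and 108 CPM. Both clusters 2 and 3 came mainly from plates 1, from which 70 of the 95 and 35 of the 58 cells were taken.

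Cluster 5, with *Il12a* leading and *Timp1* and *Spp1* among its 10 leading genes, had the highest share of cells with *Tgfb1*. It consisted of 31 CA-ERBB2 and 4 Control cells, and 0 of them were on plates 1. *Tgfb1* was found in 21 of its 35 cells (60.0%), 19 of the CA-ERBB2 and 2 of the Control cells, at a mean of 62.8 CPM and with 49.3% of all its counts. The receptors were scarce there, *Tgfbr1* in 1 and *Tgfbr2* in 5 cells, and so was *Fst*, in 2. Of the 36 cells with the 4 matrix genes, 19 were in cluster 5. Clusters 1, 2 and 3 held 5, 7 and 5 of them. The median number of genes was 3167 in cluster 5, 8893 in cluster 2 and 11936.5 in cluster 3. In cluster 1 (115 cells, median 1853 genes) no member was found in more than 24.3% of cells. In cluster 4 (51 cells, median 252 genes and 15957 counts) no listed marker was in 25% of the cells, *Tgfb1* and *Tgfb2* were found in 2 cells each and the other 8 members in none.

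**Figure D4:**
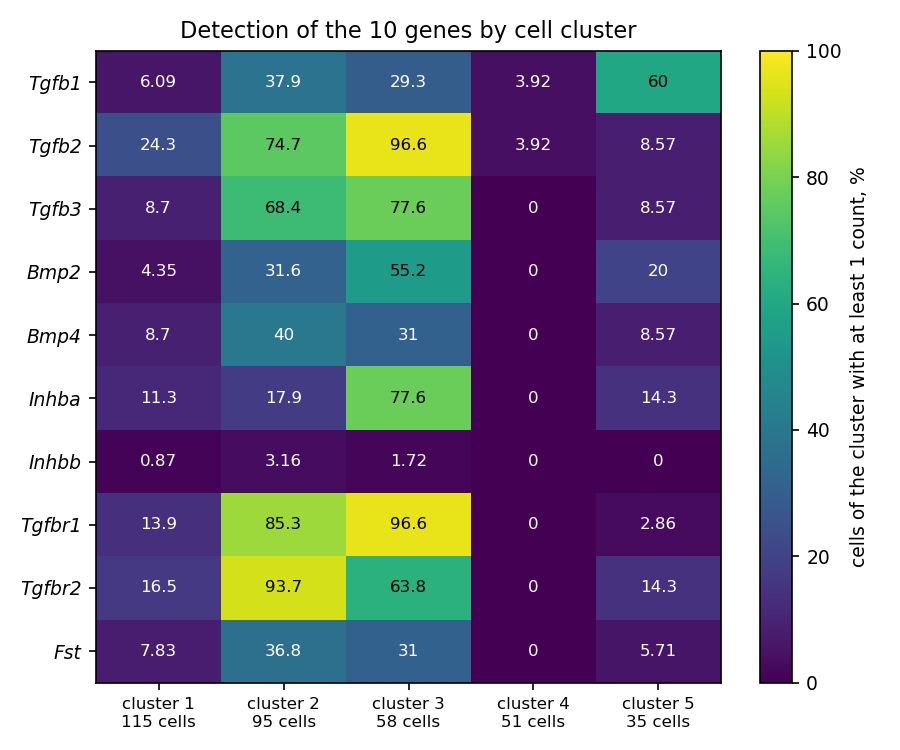
Share of cells with at least 1 count of each of the 10 genes (rows) in each of 5 cell clusters (columns), as colour and as a printed percentage. *Tgfb1* was highest in cluster 5 at 60.0%, *Inhba*, *Tgfb2* and *Tgfbr1* in cluster 3, and *Tgfbr2*, *Bmp4* and *Fst* in cluster 2.

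Ordered by CPM per kilobase of exon over the 6 plates, *Tgfb2* (22.1) was followed by *Tgfbr1* (13.6), *Tgfb3* (10.5), *Inhba* (9.98), *Tgfbr2* (9.93), *Bmp2* (9.24), *Fst* (7.58), *Bmp4* (5.54), *Tgfb1* (4.35) and *Inhbb* (0.105). The plate values of neighbours in this order overlapped, except those of *Tgfb1* and *Inhbb*. Within CA-ERBB2, *Tgfb1* was at 7.35 CPM per kb and *Fst* at 5.49, and within Control at 1.35 and 9.68.

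The other genes of the pathway were counted in 7 lists with 89 genes, of which 74 passed the filter. edgeR called 0 of the 74, as against 0.00467% of all genes tested. At an unadjusted p under 0.05, 2 were lower in CA-ERBB2 and 0 higher, where 2.39% and 2.77% of all genes tested were. *Gdf15*, a stress-induced ligand, was at 0.0601, 0.0640 and 0.410 CPM in CA-ERBB2 and at 0.135, 211 and 5.29 CPM in Control (log2 fold change -8.69 ± 2.29 (SE), unadjusted edgeR p = 0.00330, adjusted p = 0.774). Its Control mean rested on plate 2. *Lrrc32*, which tethers latent TGF-beta at the cell surface, was at 0.637, 0.293 and 0.443 CPM in CA-ERBB2 and at 6.75, 15.7 and 1.25 CPM in Control (log2 fold change -4.11 ± 1.40 (SE), unadjusted edgeR p = 0.0142, adjusted p = 0.911). All 3 Control plates were above all CA-ERBB2 plates, with 10 CA-ERBB2 and 9 Control cells positive. DESeq2, which called 1.25% of the genes it gave an adjusted p, called *Lrrc32* and no other gene of the lists, and edgeR without the filter called *Gdf15* alone.

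The lists of other receptors, SMADs, other antagonists and target genes had 0 genes at an unadjusted p under 0.05. The 11 other receptors tested had a median log2 fold change of -0.47, with 2 above 0 and 4 whose Control plates were all higher, as for 4.88% of all genes tested. *Bmpr1a*, the BMP type I receptor and the highest of the list by the mean over the 6 plates, was at 113 ± 12.1 CPM (SD, n = 3) in CA-ERBB2 and 133 ± 43.4 CPM in Control. The 8 SMAD genes had a median of -0.29, and *Smad4*, the SMAD shared by both branches, a log2 fold change of 1.08 ± 0.68 (SE; unadjusted edgeR p = 0.142). It was at 61.3, 43.9 and 176 CPM in CA-ERBB2, and without CA-ERBB2 plate 3 the log2 fold change was 0.26 (unadjusted edgeR p = 0.692). Among 15 other antagonists the median was -0.34, and *Dcn*, a proteoglycan that binds TGF-beta, was at 1056 ± 430.3 CPM and 913 ± 488.2 CPM. The 11 latency and activation genes, *Lrrc32* among them, had a median of 0.24.

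No target gene of either branch passed the test. Of 12 TGF-beta target genes, 10 had a log2 fold change above 0, with a median of 0.46 and 2 whose CA-ERBB2 plates were all higher. Of all 21416 genes tested, 10530 were above 0 and 4.2% had all CA-ERBB2 plates higher. The highest by the mean over the 6 plates, *Col1a2*, which is also a mesenchymal marker, was at 2393 ± 485.2 CPM and 2258 ± 877.5 CPM. Of 12 BMP target genes, 2 had a log2 fold change above 0, with a median of -0.61 and 1 whose Control plates were all higher, as for 4.88% of all genes tested. *Id2*, an inhibitor of differentiation, was at 1265 ± 460.4 CPM and 1531 ± 772.9 CPM. *Smad7*, an inhibitory SMAD, is in both target lists and the SMAD list. *Smad6* and *Smad9* are also in the SMAD list, *Bambi* also among the other antagonists and *Ltbp2* also among the latency and activation genes. The medians of these lists are therefore not separate observations. Over all genes tested the median was -0.02.

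**Figure D5:**
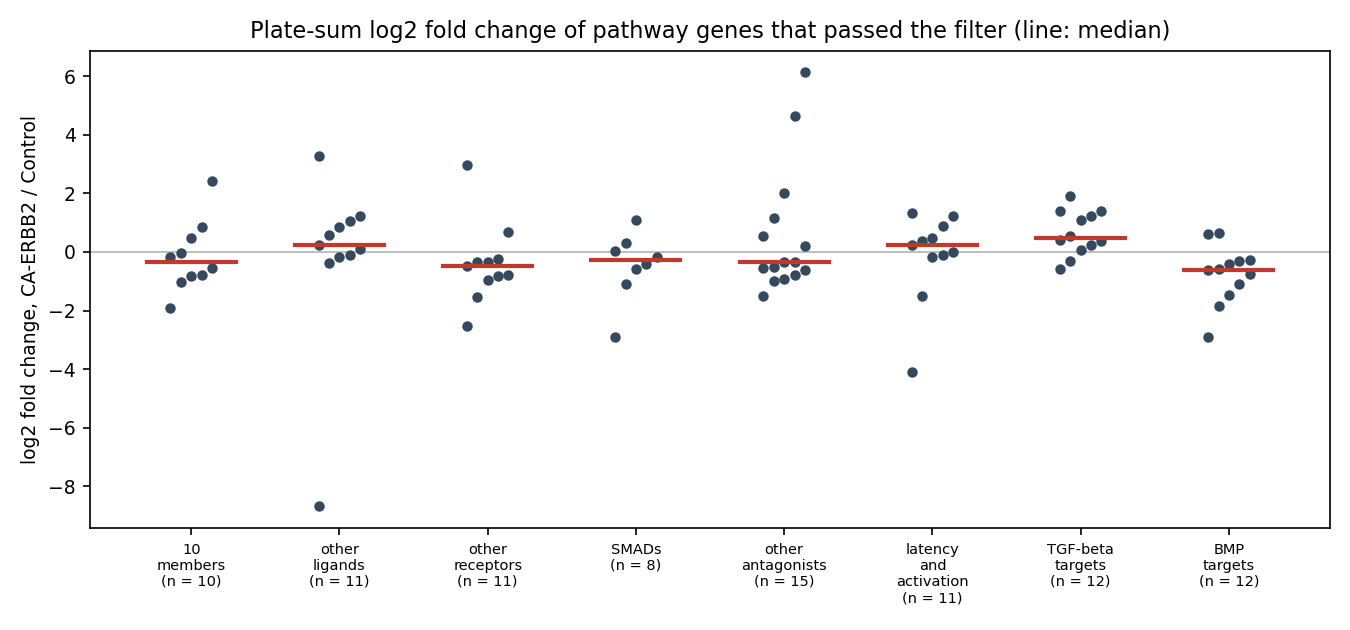
Log2 fold change of CA-ERBB2 over Control (vertical axis) of each gene that passed the filter, with 1 point per gene and the median as a line, for the 10 genes and for 7 lists of other pathway genes. The median was 0.46 for TGF-beta targets and -0.61 for BMP targets, and the lowest point is *Gdf15* at -8.69.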

How the data were processed

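Single GFP-positive cells were sorted into plates and sequenced with SMART-Seq Single PLUS. After trimming, the authors aligned the reads with STAR 2.7.6a (GRCm38, Gencode M25) and counted those on exons with featureCounts of Subread 2.0.1, set to reversed strand. Whether the kit keeps the strand is not given in the sources used here, so antisense partners are named beside the genes they overlap. The deposited values are raw counts of reads, 1 file per cell, and were not normalized by the authors. Gene positions are those of Gencode M21, which uses the same build.

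The number in a cell's name was taken as its plate. Plate sums of the counts were tested in edgeR 4.0.16 (R 4.3.3, TMM, filterByExpr, quasi-likelihood test, Benjamini-Hochberg over all 21416 genes), 3 plates against 3, with DESeq2 1.42.0 and limma 3.58.1 as alternatives. The edgeR step was run on simulated data with known changes. The share of changes it recovered is not given here, so the count of members called does not tell how many changes were missed. For shares and ratios, exact permutation tests (two-sided, scipy 1.17.1) were used. Clusters came from Seurat 5.3.0 (scale factor 1000000, 2000 variable genes, 30 principal components, resolution 0.6). Doublets were gated out at the sort, and no doublet caller was run. The members, lists and tests were chosen with earlier results of these data known. Named are all members, the 5 genes most correlated with *Tgfb1* and *Fst*, and of each pathway list the genes at an unadjusted p under 0.05 or else the most abundant. Replicates were separate plates of pooled pups, and p-values measure the spread between them.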

Additional observations from a re-analysis of the deposited data

How the results depend on the processing

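Over 15 alternative settings no member was called. Of 150 member fold changes under them, 135 kept their direction. *Tgfb1* stayed above 0 in all 15, from 0.86 with every cell weighted equally to 2.93 without CA-ERBB2 plate 1. Leaving out a plate moved it between 1.61 and 2.93, and moved *Fst* between -1.33 and -0.47. *Fst* was reversed under equal cell weights (0.16), as were *Bmp4* (0.010) and *Tgfbr2* (0.052) and the pathway gene *Id2* (0.39). *Tgfb3* lay near 0 and was reversed with DESeq2 (0.0043), RLE factors (0.0043), the replicate block (0.0016), without wells A12 to D12 (0.033), on plates 2 and 3 alone (0.034), and without CA-ERBB2 plate 2, CA-ERBB2 plate 3 or Control plate 1, with a range from -0.74 to 0.73 over the 6 left-out plates. Left-out plates also took *Bmp4* from -0.85 to 0.30, *Tgfbr1* from -0.98 to 0.35, *Bmpr1a* from -0.39 to 0.046 and *Col1a2* from -0.13 to 0.42, and *Inhba* was at -0.059 on plates 2 and 3 alone. Plate totals without factors shifted the median of all genes to -0.27 and put *Dcn* at -0.048 and *Col1a2* at -0.18. The cause of these changes was not tested.

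Of the pathway lists, DESeq2 called 1 gene (*Lrrc32*) and edgeR without the filter, with 39201 genes tested, 1 gene (*Gdf15*). The number of members with separated detection was 1, and it was 0 at 10 CPM and in the 305 filtered cells and 2 without Control plate 2, ranging from 1 to 2 over left-out plates. The *Tgfb1* detection difference was 9.60 percentage points at 10 CPM and 11.3 after thinning to 100000 counts, and 13.6 to 19.5 over left-out plates. For *Fst* that difference ranged from -2.54 to 12.7. The *Tgfb1* to *Fst* difference stayed above 0, from 1.63 to 3.96 over left-out plates, and was 1.78 with a pseudocount of 10 CPM. Chosen after seeing the data, a limit of 10 CPM left 5 CA-ERBB2 cells with both genes, and clustering at resolution 0.2 gave 3 clusters.

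Plates with the same number deviated together in small part (correlations 0.214, 0.0817 and 0.0728). The correlations of plates with unlike numbers were lower, from -0.107 to 0.0179. The main tests did not pair the plates by number. Within each plate number, the *Tgfb1* level and the *Tgfb1* to *Fst* ratio were higher in CA-ERBB2. With the replicate block the *Tgfb1* log2 fold change was 2.25 (edgeR unadjusted p = 0.0131, adjusted p = 0.989). That of *Fst* was -0.67 (edgeR unadjusted p = 0.330), with 0 members and 1 gene in all called. Sign flips within plate numbers gave an exact p of 0.25 for the *Tgfb1* to *Fst* ratio, the smallest that 3 pairs allow.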
